A study of Rattus norvegicus with 40 samples.

Results

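The cytosolic ribosomal protein genes were followed in the dorsal root ganglia (DRGs), the clusters of sensory neuron cell bodies beside the spinal cord, of rats with a ligated spinal nerve (SNL, spinal nerve ligation) and of sham-operated rats. They were chosen by name. A gene was a member when a probe set carried a single symbol made of Rpl or Rps, an optional p, digits and an optional a or x, and when nothing else followed. This gave 45 probe sets of 41 genes, among 14217 genes with a single symbol on the array, and each gene was represented by the probe set with the highest mean level over all arrays. Of the 41 members, 29 belong to the large subunit and 12 to the small subunit. The SNL rats had the L5 spinal nerve ligated on one side, distal to the DRG, and the sham rats had the same operation with no ligature. All were male Sprague-Dawley rats with no transgene, there were 5 in each cohort, and tissue was taken 4 weeks after surgery. RNA of individual L4 and L5 DRGs from the operated (ipsilateral) and the other (contralateral) side was hybridized to Affymetrix rat genome arrays, 1 array per DRG, which makes 8 groups of 5 arrays and 40 arrays in all. In SNL rats the ipsilateral L5 DRG holds the injured neurons, the ipsilateral L4 DRG lies beside it with its own nerve intact, and the contralateral DRGs come from an operated animal and are not naive tissue.

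Ribosomal proteins assemble with ribosomal RNA in the nucleolus into a small subunit, which reads the messenger RNA, and a large subunit, which joins amino acids. The subunits need their proteins in equal numbers, and the genes are among the most highly expressed in any cell. Their messenger RNAs begin with a run of pyrimidines at the 5′ end, the TOP motif, through which the growth-regulating kinase complex mTORC1 controls their translation. In sensory neurons, injury of the peripheral axon is known to start a regrowth programme that draws on protein synthesis in the cell body and in the axon.

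The deposited values are linear MAS 5 signals whose trimmed mean was set to the same value on every array (99.96 to 99.97). They were analysed as log2(signal + 16) with limma over 31042 probe sets, and a probe set was called at a Benjamini-Hochberg adjusted p under 0.05 over all of them. Because of the added 16, the change of a dim gene comes out too small. The median signal of an array was between 28.6 and 55.6. Operated-side arrays had the higher median signals, by 0.11 to 0.21 on the log2 scale. The main counts and medians of the members are therefore given as deposited and after quantile normalization. Quantile normalization gives all 40 arrays the same distribution of signals. A value of a single gene with no scaling named is as deposited, and it can differ after quantile normalization. For Rps29 in SNL L4 the 2 values were 0.48 and 0.21. Beyond the median signal, 4 further measures differed between sides. For the GAPDH transcript, the log2 excess of the 3′ over the 5′ probe set was greater ipsilaterally by 0.95 (SNL L4), 0.64 (SNL L5), 0.43 (sham L4) and 0.09 (sham L5, where the sides overlapped). The same excess for actin was greater ipsilaterally by 0.77 in SNL L4 (with overlap) and by 1.14 in SNL L5 (without overlap), and differed by -0.21 in sham L4 and 0.22 in sham L5, with overlap in both. For the bacterial control transcripts the log2 level was greater by 0.51 (SNL L4), 0.26 (SNL L5), 1.14 (sham L4) and 1.26 (sham L5), with overlap in SNL L5. The 99th percentile of the signals differed by -0.04, 0.04, 0.27 and 0.34 on the log2 scale in the same order, and only in the sham rats were the sides separate. The part of these measures in the results was not tested. Going by how the labels name the arrays, the 10 from SNL L5 form a series apart from the other 30. No comparison of sides crosses from one series to the other. Within a series the names number the arrays group by group, with the ipsilateral arrays of a comparison before the contralateral ones. Side therefore cannot be told apart from this order of the arrays in any comparison of sides. What the series and the numbers stand for is not stated. Of 16 sensory neuron markers 15 were measured, and none of them had a mean signal under 16.

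The start sites show what the members share in sequence. RefSeq promoters (build GRCr8) were found for 36 of the 41 members, 34 by gene identifier and 2 by symbol. In the 30 bases from 10 before to 20 after the annotated start, on the gene's own strand, a run of at least 8 bases made only of C and T was present in 21 of the 36 members (58.3%) and in 10.6% of all 27457 promoters. The letters CTTTC, which can lie within such a run, were present in the same window in 14 members (38.9%) and in 3.41% of all promoters. Over the whole 300 bases, on both strands, TTCCG was present in 24 members (66.7%) and in 31.4% of all promoters, AAGATGG in 8 members (22.2%) and 7.30%, and TATAAA in 4 members (11.1%) and 14.3%. The windows of the 5 members with the largest rises in the ligated L5 DRG as deposited are printed first. They are followed by Rps15, Rpl18 and Rps3, which stood out against sham rats, and by Rpl27a and Rps23, which held the longest runs. Capitals mark the longest run of C and T within the window, and the RefSeq start lies after the base at position 10.
Rplp0, chr12:46718371-46718400, minus strand: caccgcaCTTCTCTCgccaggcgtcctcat
Rpl22, chr5:168117951-168117980, plus strand: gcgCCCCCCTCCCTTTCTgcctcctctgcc
Rpl41, chr7:1563478-1563507, minus strand: CTCggaagtgacgacaccaagcacgccatt
Rpl26, chr10:54109682-54109711, plus strand: gtcaaCTTacagaaccggaagtcgcatgta
Rps3a, chr2:173827023-173827052, minus strand: gtacttccgCCCTTTTggctctcagagcgg
Rps15, chr7:10068096-10068125, minus strand: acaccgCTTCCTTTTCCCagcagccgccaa
Rpl18, chr1:105325260-105325289, plus strand: aCCTggtctagcaggaggcgccatcatggt
Rps3, chr1:163195757-163195786, minus strand: TTCagcggcgcgcggcagcaagatggcggt
Rpl27a, chr1:172974563-172974592, plus strand: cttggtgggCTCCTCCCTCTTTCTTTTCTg
Rps23, chr2:23814507-23814536, plus strand: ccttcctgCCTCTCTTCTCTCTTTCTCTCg

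The runs reached 21 bases in Rps23 and 20 in Rpl27a and were 3 bases long in Rpl41, Rpl26, Rpl18 and Rps3. A run that starts before the window is cut at its edge, and an annotated start can differ from the base where transcription begins. The members with and without a run of at least 8 bases had like side differences in ligated L5, with median log2 fold changes of 0.42 over 21 members and 0.44 over 15 as deposited and of 0.35 and 0.34 after quantile normalization. These medians are a description, and no test was made.

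Most members were among the brightest probe sets, with 34 to 37 of the 41 above the 95th percentile on each array. Over the arrays, 35 had a mean level above the 95th percentile of all probe sets, from Rps15 with a mean signal of 561 to Rps29 with 3002. Rpl28 and Rpl30 were the exceptions at the other end, with mean signals of 10.3 and 16.7, below the median of all probe sets, and Rps13 (77.7), Rpl39 (136), Rpl14 (381) and Rpl22 (500) lay between. The median of the 41 members on an array, on the scale of log2(signal + 16), was 10.95 ± 0.10 (SD, n = 5) in ipsilateral SNL L5 and 10.54 ± 0.10 in contralateral SNL L5. Every ipsilateral array (10.81 to 11.07) lay above every contralateral one (10.43 to 10.70), and the 5 rats differed between their sides by 0.11 to 0.54. After quantile normalization the same medians were 10.80 ± 0.04 and 10.50 ± 0.05. Ipsilateral SNL L5 had the highest median of the 8 groups under both scalings, and contralateral SNL L5 came next. All SNL L5 arrays form the series apart, so these ranks among groups cannot be told apart from the array series. In sham L5 the medians were 10.42 ± 0.06 and 10.09 ± 0.04 (SD, n = 5) as deposited, with no overlap, but 10.42 ± 0.07 and 10.41 ± 0.05 after quantile normalization, with overlap. Contralateral sham L5 was the lowest group as deposited and not after quantile normalization.

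**Figure D1:**
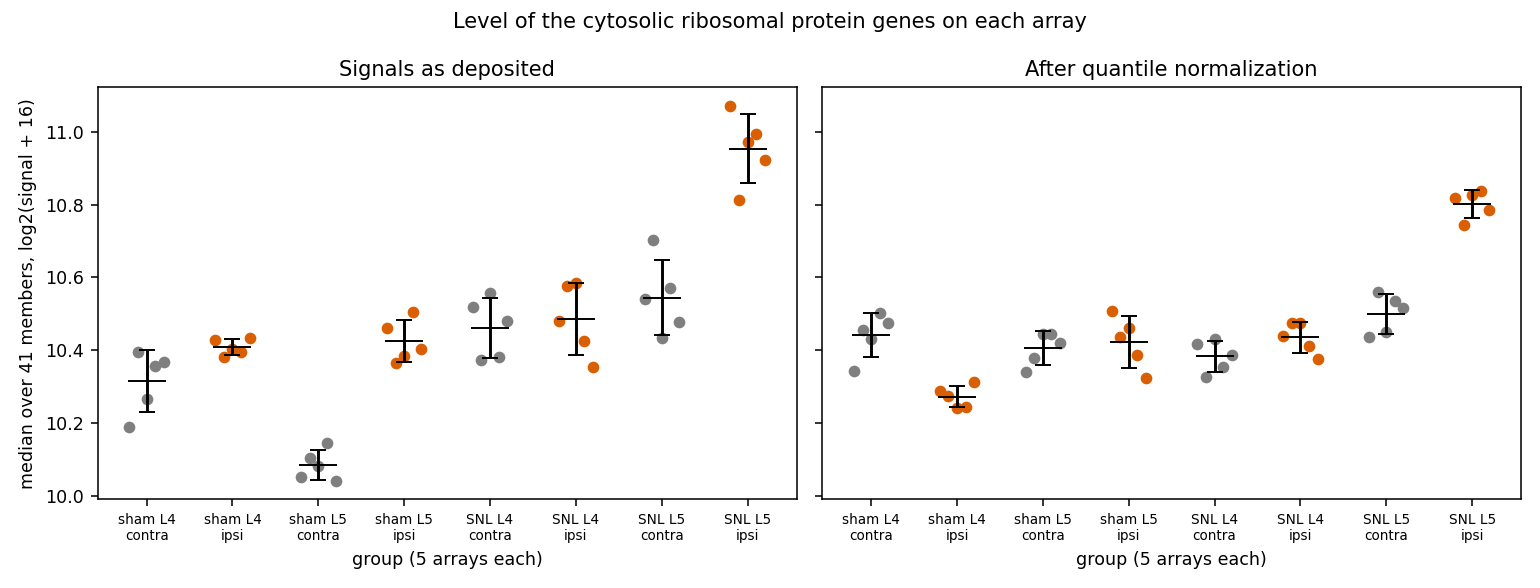
Median over the 41 cytosolic ribosomal protein genes on each array, as log2(signal + 16), in the 8 groups, with the signals as deposited (left) and after quantile normalization (right). Points are arrays (grey contralateral, orange ipsilateral), and black bars are the mean ± SD of 5. Ipsilateral SNL L5 lies above its contralateral group in both panels, while sham L5 (10.42 and 10.09 as deposited) does so only in the left one.

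In the ligated L5 DRG nearly all ribosomal protein genes were higher than on the other side, by similar and modest amounts. As deposited, 39 of the 41 members rose and 0 fell, while 30.3% of all probe sets were called higher and 16.8% lower. The shares of all probe sets, here and below, are not matched for level, and most members are among the brightest probe sets. The median log2 fold change of the members was 0.41, a 1.32-fold difference, against 0.12 over all probe sets, and the 2 sides did not overlap in 30 members, all of them higher on the ipsilateral side. Over all probe sets 20.8% were higher and 13.1% lower without overlap. After quantile normalization 36 rose and 0 fell, against 21.3% and 19.8% of all probe sets, and the median was 0.32 against 0.03. All 36 were also called as deposited. No member was lower at an unadjusted p under 0.05 as deposited, and only Rpl30 was after quantile normalization. The test that the study's methods name, at an unadjusted p under 0.001, called 24 higher and 0 lower. The share of all probe sets that this test calls is not given here, so its counts lack a background. When arrays were scaled to equal medians instead, 22 members rose and 0 fell (16.8% and 24.4% of all), and the median was 0.19. Both subunits took part, with 27 of 29 large-subunit and all 12 small-subunit members called higher as deposited, and with medians of 0.42 and 0.39. In whole DRGs a change in the number of cells of one type cannot be told apart from a change in RNA per cell.

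The P-stalk of the large subunit, which recruits the elongation factors to the ribosome, is represented here by Rplp0, its anchoring protein and a widely used reference gene. Its signals were 1089, 1031, 1159, 1188 and 1137 on the ipsilateral and 692, 801, 735, 725 and 693 on the contralateral SNL L5 arrays. The sides did not overlap, and the log2 fold change in limma was 0.61 ± 0.06 (SE, adjusted p = 8.28e-08), the highest of the members as deposited. It was 0.63 ± 0.05 after quantile normalization. Rpl22, an RNA-binding protein at the surface of the large subunit, had ipsilateral signals of 687, 609, 686, 706 and 645 and contralateral signals of 422, 461, 425, 469 and 417. It was higher in each of the 5 rats, by 0.58 ± 0.06 on the log2 scale as deposited and by 0.67 ± 0.05 after quantile normalization. Rpl41, which encodes the smallest ribosomal protein, rose from 1892, 2188, 1541, 1806 and 1546 to 3084, 2263, 2653, 2629 and 2787 (log2 fold change 0.58 ± 0.09), and Rpl26, which lies near the exit of the peptide tunnel, rose by 0.57 ± 0.08.

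Other large-subunit proteins with known roles rose as well. Rpl5 and Rpl11 form a particle with 5S ribosomal RNA that can also bind the p53 regulator Mdm2. The signals of Rpl5 were 2134, 1783, 2071, 1886 and 1973 on the ipsilateral and 1312, 1675, 1360, 1512 and 1371 on the contralateral side, without overlap (log2 fold change 0.44 ± 0.07). Rpl11 rose less, by 0.26 ± 0.06 as deposited and 0.17 ± 0.04 after quantile normalization. Rpl4, whose loop lines the peptide tunnel, rose by 0.54 ± 0.07, and Rpl13a, another common reference gene, by 0.56 ± 0.06. Rpl3, which lies close to the catalytic centre, rose by 0.26 ± 0.07 as deposited, but its difference after quantile normalization was 0.10 ± 0.05 (adjusted p = 0.0954).

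In the small subunit the largest rise as deposited was that of Rps3a. Its signals were 2569, 2241, 2480, 2373 and 2338 on the ipsilateral and 1692, 1786, 1465, 1590 and 1578 on the contralateral side. The log2 fold change was 0.56 ± 0.06 as deposited and 0.42 ± 0.04 after quantile normalization. After quantile normalization Rps15 (0.54 ± 0.06) and Rps28 (0.45 ± 0.06) rose more than Rps3a. Rps6, the substrate of S6 kinase, had signals of 1951, 1800, 1812, 1781 and 1796 against 1486, 1440, 1359, 1215 and 1367. These groups did not overlap, and the log2 fold change was 0.41 ± 0.06. Rps3, which lines the entry of the messenger RNA channel, stood at 1298, 1190, 1270, 1237 and 1306 against 991, 1087, 946, 951 and 926 (0.36 ± 0.05), with no overlap. Rps28, a small protein near the exit of that channel, rose by 0.52 ± 0.08.

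The members not called in SNL L5 as deposited were the 2 dimmest. Rpl30 had a log2 fold change of -0.15 ± 0.14 and Rpl28 one of 0.14 ± 0.11, at signals of 5.90 to 19.6 and 5.66 to 14.2. Rpl21, Rpl3 and Rps13 were called as deposited and not after quantile normalization. The smallest called differences were those of Rpl24 (0.14 ± 0.05) and Rps9 (0.17 ± 0.06). Of the members not described elsewhere, Rpl6 rose by 0.51 ± 0.10, Rpl23 by 0.42 ± 0.08, Rps15a by 0.38 ± 0.05, Rps16 by 0.30 ± 0.07 and Rpl23a by 0.29 ± 0.06, and all 5 were also called after quantile normalization.

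**Figure D2:**
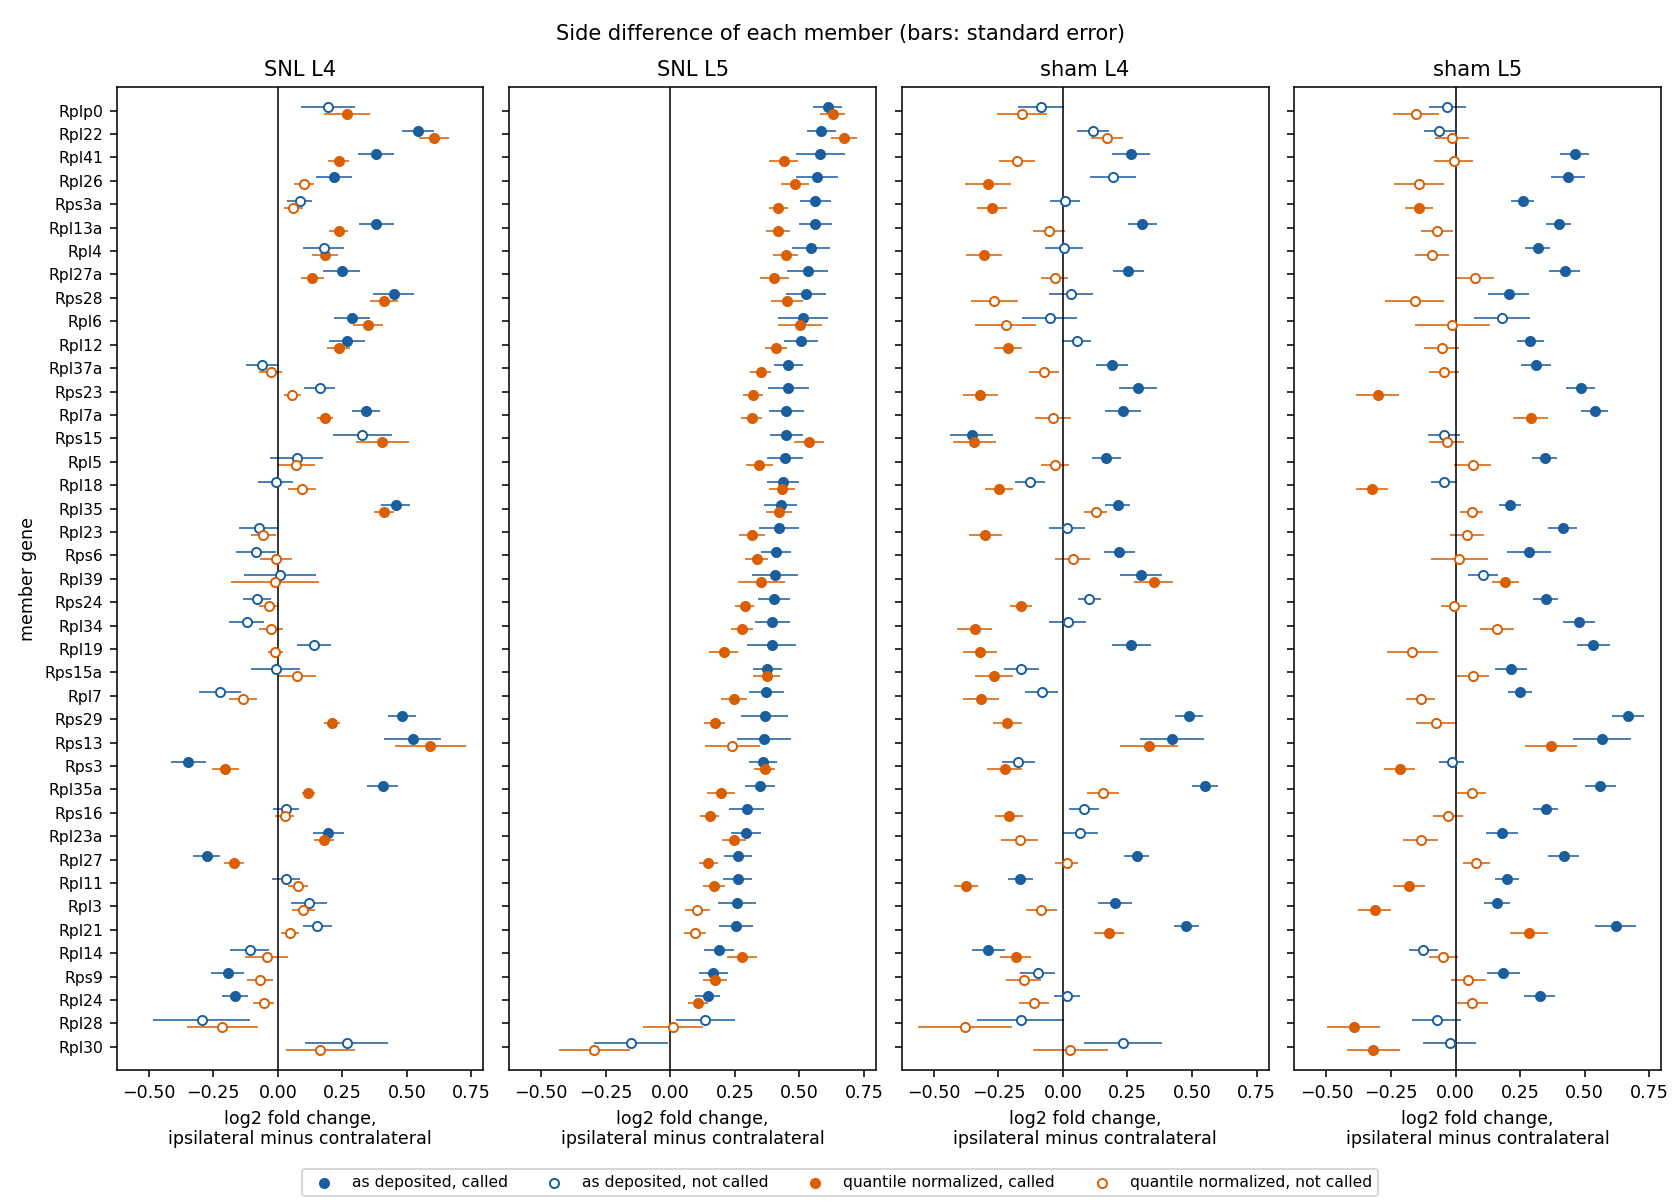
Log2 fold change, ipsilateral minus contralateral, of each of the 41 members in SNL L4, SNL L5, sham L4 and sham L5, ordered by SNL L5 as deposited. Blue is as deposited, orange after quantile normalization, filled points are called at an adjusted p under 0.05 and bars are standard errors. In SNL L5 both colours lie to the right of 0 for every member but Rpl30, while in sham L4 and sham L5 the orange points lie left of the blue ones for most.

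In sham rats the members were also higher on the operated side with the signals as deposited, but few of these differences kept their call after quantile normalization. In sham L5, 31 members rose and 0 fell as deposited, where 31.1% of all probe sets were called higher and 19.3% lower, and the median log2 fold change was 0.29 against 0.06 over all probe sets. One member, Rpl14, was lower at an unadjusted p under 0.05. The methods' test called 24 higher and 0 lower, again with no share of all probe sets beside it. After quantile normalization 4 rose and 8 fell, where 16.9% of all were called higher and 21.5% lower, and the median was -0.03. Only Rpl21, Rpl7a and Rps13 were called higher under both scalings, and Rpl11, Rpl3, Rps23 and Rps3a turned from called higher to called lower. In sham L4, 17 rose and 3 fell as deposited (17.3% and 9.85% of all probe sets), with a median of 0.10, and 3 rose and 18 fell after quantile normalization (8.97% and 8.91%), with a median of -0.18. There Rpl21, Rpl39 and Rps13 were called higher under both scalings, Rpl11, Rpl14 and Rps15 were called lower under both, and Rpl19, Rps23 and Rps29 turned from higher to lower. With equal medians, 9 rose and 8 fell in sham L5, where 19.6% of all probe sets were called higher and 41.5% lower. In sham L4, 3 rose and 15 fell with equal medians (10.1% and 27.5% of all).

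The largest rises in sham rats as deposited were those of Rps29, a zinc-binding protein of the small subunit, and of Rpl21 and Rpl35a of the large subunit. Rps29 had signals of 2918, 2532, 2655, 3112 and 3158 in ipsilateral and 1825, 1772, 1801, 1841 and 1736 in contralateral sham L5. The groups lay far apart, and the log2 fold change was 0.67 ± 0.06, but after quantile normalization it was -0.07 ± 0.08 (adjusted p = 0.495). Its change in sham L4 turned from 0.49 ± 0.06 to -0.22 ± 0.06, with a call in each direction. Rpl35a rose by 0.56 ± 0.06 in sham L5 and by 0.55 ± 0.05 in sham L4 as deposited, and its values after quantile normalization, 0.06 ± 0.06 and 0.15 ± 0.06, were not called. Rpl21 behaved otherwise. Its signals were 1632, 1607, 1580, 2105 and 2038 against 1214, 1181, 1163, 1091 and 1108 in sham L5, with log2 fold changes of 0.62 ± 0.08 as deposited and 0.28 ± 0.07 after quantile normalization, both called.

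The size of the side difference followed the level of the member in sham rats and much less so after ligation. Across the 35 members above the 95th percentile, Spearman's rho between level and log2 fold change was 0.79 in sham L4 and 0.83 in sham L5 as deposited, 0.37 in SNL L4 and 0.14 in SNL L5. After quantile normalization it was 0.07, 0.02, 0.03 and -0.27 in the same order. The values are across genes measured on the same arrays, which are not independent, and serve as a description. Members in the dimmer part of this range were mixed in sham L5 as deposited. Rps9 (0.18 ± 0.06), Rps15a (0.21 ± 0.06) and Rpl35 (0.21 ± 0.04) were called higher and Rpl6 (0.18 ± 0.11) was not called. Slightly negative values, none of them called, were those of Rplp0 (-0.03 ± 0.07), Rps15 (-0.04 ± 0.06), Rpl18 (-0.05 ± 0.05) and Rps3 (-0.01 ± 0.05). The last 4 rose in SNL L5 by 0.36 to 0.61.

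**Figure D3:**
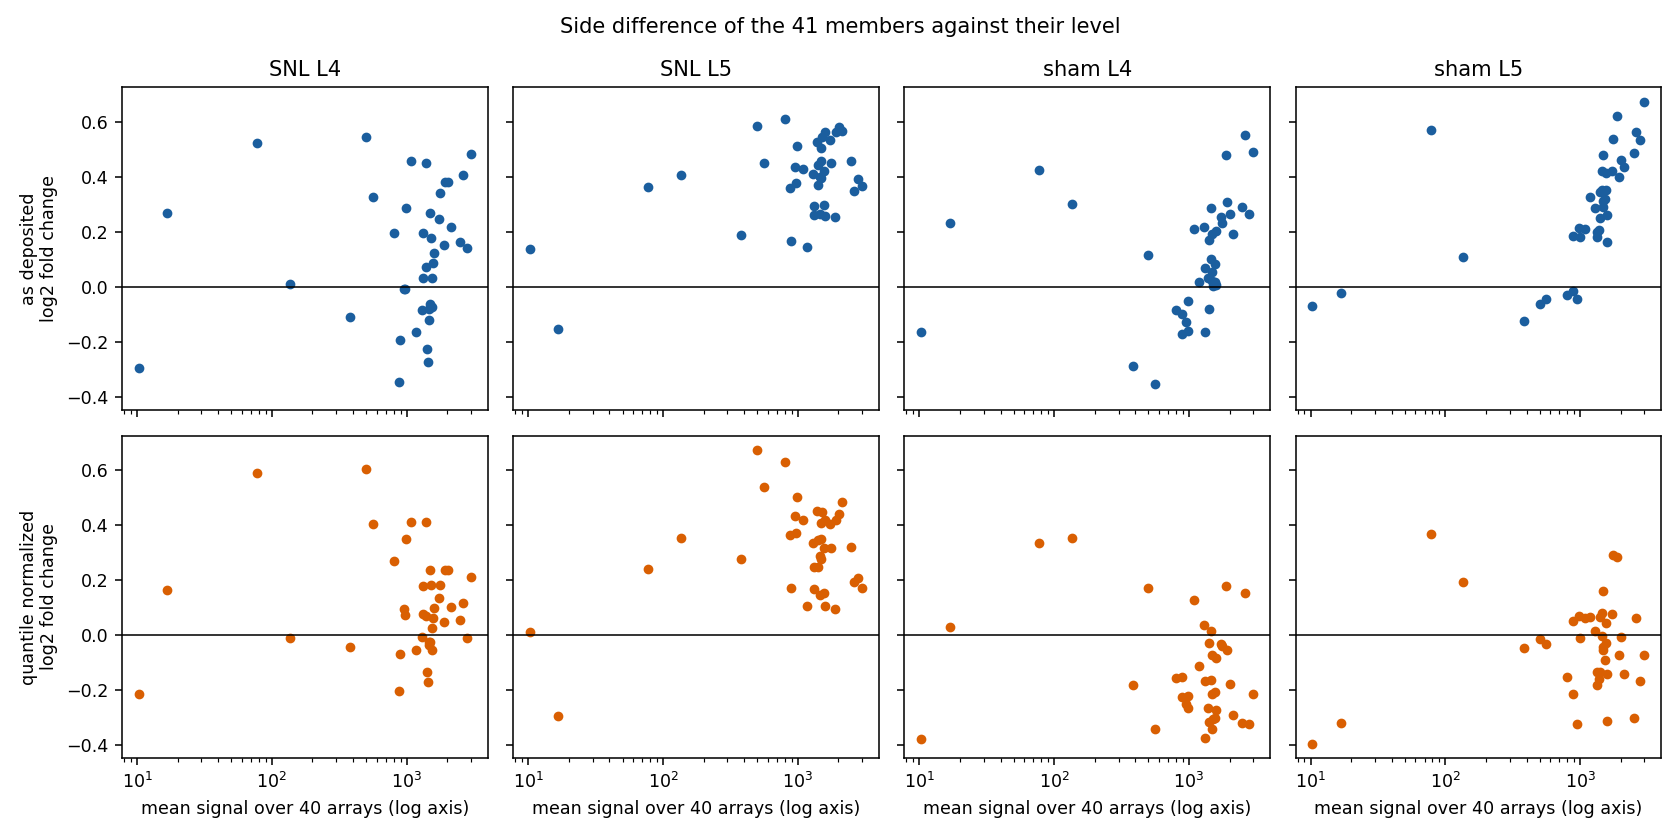
Log2 fold change, ipsilateral minus contralateral, of the 41 members against their mean signal over the 40 arrays (logarithmic axis), as deposited (top) and after quantile normalization (bottom), in the 4 comparisons of sides. In sham L4 and sham L5 as deposited the difference rises with the signal among the 35 brightest members (rho 0.79 and 0.83), and in SNL L5 as deposited these 35 stay between 0.14 and 0.61.

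Whether ligation changed the members beyond the sham operation was tested by the interaction of side and surgery, which at L5 compares arrays of different array series but subtracts only side differences made within a series. As deposited, the side difference was larger in SNL than in sham L5 for 12 members and smaller for 3, while 20.9% of all probe sets were called higher and 22.3% lower. After quantile normalization it was larger for 31 and smaller for 0 (20.1% and 20.4% of all), and the median of the members was 0.36 as against 0.12 as deposited. At an unadjusted p under 0.05, 1 member, Rpl21, was smaller after quantile normalization. With equal medians 17 were larger and 0 smaller (24.7% and 20.3% of all). A set of 11 members was called larger under all 3 scalings, namely Rpl4, Rpl12, Rpl14, Rpl18, Rpl22, Rpl35, Rplp0, Rps3, Rps3a, Rps15 and Rps28. With the rat as a replicate block, since the 2 sides come from the same animal, 8 members were called larger and 2 smaller as deposited and 27 and 0 after quantile normalization. The shares of all probe sets called under the block, or under all 3 scalings, are not given here. Under the block as deposited, Rpl4, Rpl12, Rpl35 and Rps28 lost the call of a larger difference and Rpl35a that of a smaller one (adjusted p = 0.098, 0.0876, 0.0621, 0.0529 and 0.0669 in limma, in this order).

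As deposited, the largest differences from sham rats at L5 were those of Rpl22 and Rplp0, and after quantile normalization those of Rplp0 and Rpl18. Rpl22 stood at 481, 426, 439, 430 and 400 on the ipsilateral and 421, 466, 422, 507 and 461 on the contralateral side of sham L5, which overlap, against the separate groups in SNL L5 given above. The difference of the 2 side differences was 0.65 ± 0.08 as deposited and 0.69 ± 0.08 after quantile normalization. For Rplp0, with sham L5 signals of 761, 754, 701, 711 and 673 against 646, 704, 705, 886 and 757, it was 0.64 ± 0.09 and 0.78 ± 0.11. Rps15, which is needed for the export of small-subunit precursors from the nucleus, had SNL L5 signals of 701, 651, 750, 769 and 684 against 451, 560, 546, 519 and 509 and an interaction of 0.49 ± 0.09. The interaction was 0.48 ± 0.08 as deposited and 0.75 ± 0.08 after quantile normalization for Rpl18, which stood at 1328, 1205, 1369, 1348 and 1316 against 894, 1111, 961, 960 and 914 in SNL L5, and 0.37 ± 0.07 for Rps3. The 3 members with a smaller side difference in SNL rats as deposited were Rpl21 (-0.37 ± 0.11), Rps29 (-0.30 ± 0.12) and Rpl35a (-0.21 ± 0.08). None of them kept that call after quantile normalization, where the values were -0.19 ± 0.08, 0.25 ± 0.08 and 0.13 ± 0.08 and Rps29 was called larger.

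**Figure D4:**
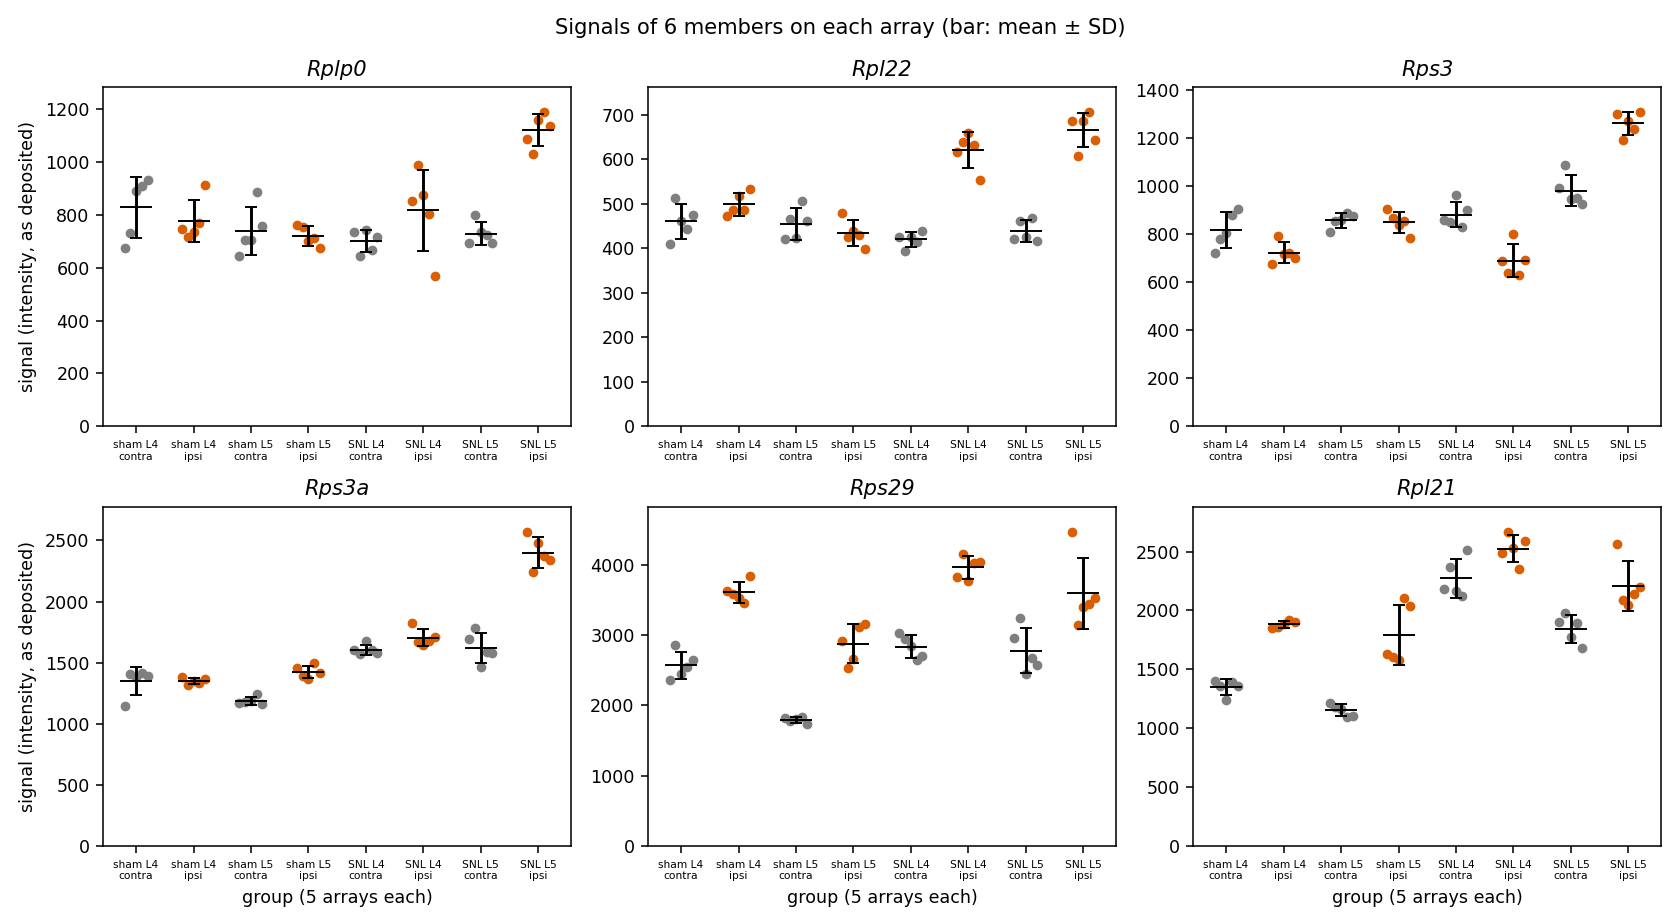
Deposited signals of Rplp0, Rpl22, Rps3, Rps3a, Rps29 and Rpl21 on each array in the 8 groups, with vertical axes from 0. Points are arrays (grey contralateral, orange ipsilateral), and black bars are the mean ± SD of 5. Rplp0, Rpl22 and Rps3 are separated between sides in SNL L5 and overlap in sham L5, whereas Rps29 and Rpl21 are separated between sides in sham L4 and sham L5, and Rps29 overlaps in SNL L5.

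In the L4 DRG beside the ligated one the members did not move together. As deposited 14 rose and 4 fell, where 10.1% of all probe sets were called higher and 9.01% lower, and the median log2 fold change was 0.14 against 0.07 over all probe sets. After quantile normalization 16 rose and 2 fell (8.26% and 9.69% of all), with a median of 0.08. Under both scalings 13 members were called higher and 2 lower, and the share of all probe sets called under both is not given here. With equal medians 9 rose and 8 fell (5.11% and 13.5% of all). Rpl22 rose most, from 427, 395, 426, 415 and 440 to 616, 640, 660, 632 and 555 (0.54 ± 0.06), followed by Rps13 (0.52 ± 0.11), Rps29 (0.48 ± 0.05), Rpl35 (0.46 ± 0.06) and Rps28 (0.45 ± 0.08). Rps3 fell from 857, 851, 962, 830 and 898 to 689, 639, 802, 628 and 690, with no overlap (-0.35 ± 0.07), and Rpl27 fell by 0.28 ± 0.05 on the log2 scale. Rps3 and Rpl27 were the 2 that fell under both scalings. Rpl24 and Rps9 were called lower as deposited only. Rplp0 had signals of 851, 988, 874, 802 and 568 against 734, 644, 743, 668 and 717, which overlap because of 1 low ipsilateral array. Its log2 fold change was 0.20 ± 0.11 (adjusted p = 0.222 in limma), while after quantile normalization it was called at 0.27 ± 0.09. Some of the largest rises were also seen in sham L4 as deposited, where Rps13 (0.42 ± 0.12), Rps29 (0.49 ± 0.06) and Rpl35 (0.21 ± 0.05) were called higher. Rpl22 (0.12 ± 0.06) and Rps28 (0.03 ± 0.09) were not called there.

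Against sham rats at L4, 4 members had a larger and 3 a smaller side difference in SNL rats as deposited (5.72% and 8.28% of all probe sets), and 21 a larger and 1 a smaller one after quantile normalization (5.14% and 7.29%). With equal medians 6 were larger and 1 smaller (8.54% and 6.08%). Rps15 (0.68 ± 0.15), Rpl22 (0.43 ± 0.09), Rps28 (0.42 ± 0.12) and Rpl35 (0.25 ± 0.07) were larger and Rpl27 (-0.56 ± 0.07) was smaller under both scalings. Rpl21 (-0.33 ± 0.07) and Rps6 (-0.30 ± 0.10) were smaller as deposited only. The signals of Rpl27 show the crossing, with 1194, 1311, 1222, 1254 and 1292 on the ipsilateral and 1465, 1556, 1601, 1428 and 1561 on the contralateral side of SNL L4, and 1498, 1548, 1595, 1487 and 1605 against 1226, 1345, 1216, 1240 and 1306 in sham L4. The sides were separate in both, in opposite directions, although in sham L4 the difference after quantile normalization was 0.02 ± 0.04.

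Within SNL rats, the side difference was larger at the ligated L5 than at L4 for 20 members as deposited and smaller for 0 (11.1% and 8.08% of all probe sets), and larger for 23 and smaller for 0 after quantile normalization (10.1% and 8.32%). With equal medians 12 were larger and 0 smaller (8.98% and 10.1%). All SNL L5 arrays lie in the series apart, so segment and array series cannot be told apart here. Each side difference was made within a series. No member was smaller at an unadjusted p under 0.05 as deposited, and only Rpl30 was after quantile normalization. The medians were 0.29 and 0.22. The largest of these differences were those of Rps3 (0.71 ± 0.09), Rpl7 (0.60 ± 0.11), Rpl27 (0.54 ± 0.07), Rpl37a (0.52 ± 0.08) and Rpl34 (0.52 ± 0.10), all called under both scalings. Rps3 and Rpl27 fell at L4 and rose at L5. Rpl7 rose at L5, where it stood at 2250, 1875, 1991, 2073 and 1992 against 1472, 1809, 1447, 1634 and 1503, and was not called at L4 (-0.23 ± 0.08, adjusted p = 0.0634 in limma). It was called lower at L4 with the rat as a replicate block (adjusted p = 0.0194) and with equal medians (adjusted p = 0.00827). Rpl22, Rpl35 and Rps28, which rose at both segments, had differences between segments of 0.04 ± 0.08, -0.03 ± 0.09 and 0.08 ± 0.12, none of them called.

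Of the members, 4 were measured by a second, dimmer probe set, and these did not always move alike. The second probe set of Rpl7 fell in SNL L4 by 0.42 ± 0.06 and in sham L4 by 0.40 ± 0.06 on the log2 scale and rose in SNL L5 by 0.23 ± 0.06. That of Rpl14 rose in sham L4 by 0.82 ± 0.09 where the chosen one fell by 0.29 ± 0.06. For SNL minus sham at L5, where Rpl14 was called larger under all 3 scalings, its second probe set had the opposite sign and was not called. The values were -0.24 ± 0.17 as deposited and -0.23 ± 0.17 after quantile normalization, against 0.31 ± 0.08 and 0.32 ± 0.08 for the chosen one. In SNL L5 the second probe sets of Rpl14 and Rpl3 (0.20 ± 0.13 and 0.22 ± 0.12) were not called, and that of Rps24 was as deposited (0.36 ± 0.12) but not after quantile normalization (0.19 ± 0.12). A further 33 probe sets carry several symbols of which at least 1 is ribosomal, and they were left out by the rule. In SNL L5, 29 of them were called higher and 1 lower under either scaling, with medians of 0.39 and 0.29. The shares of all probe sets there were 30.3% and 16.8% as deposited, and 21.3% and 19.8% after quantile normalization. In sham L5 25 higher and 0 lower (31.1% and 19.3% of all) became 4 and 5 (16.9% and 21.5%). Mammalian genomes hold many processed copies of ribosomal protein genes, and the genomic matches of the probes were not examined.

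Ribosomal genes whose names fall outside the rule gave mixed values in SNL L5. Rpsa, the small-subunit protein also known as the laminin receptor, rose by 0.86 ± 0.06, and Rack1, a scaffold on the small subunit, rose by 0.46 ± 0.06. The p53-induced paralog Rps27l rose by 0.68 ± 0.06. The muscle paralog Rpl3l fell by 1.12 ± 0.15 on the log2 scale, but it was dim. Its mean log2(signal + 16) over all arrays was 4.57, below that of the dimmest member, Rpl28 (4.69). Rpl7l1 was not called (-0.13 ± 0.06). After quantile normalization the calls of these 5 genes in SNL L5 were unchanged. Rpsa also rose in SNL L4 (0.48 ± 0.06) and was not called in sham L4 or sham L5 as deposited, whereas after quantile normalization it was called lower in both (-0.20 ± 0.05 and -0.29 ± 0.05). Rack1 was called higher in sham L5 as deposited (0.23 ± 0.07) and not after quantile normalization (0.10 ± 0.09). Its interaction at L5 was not called as deposited (0.23 ± 0.10) and was called larger after quantile normalization (0.34 ± 0.11).

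The rest of the translation machinery was read from lists of genes. The ribosomal proteins of mitochondria, which serve a separate ribosome and are also encoded in the nucleus, went the other way. Of 73 genes, 4 rose and 41 fell in SNL L5 as deposited and 5 rose and 36 fell after quantile normalization, with medians of -0.21 under both. Of all probe sets, 30.3% were called higher and 16.8% lower there as deposited, and 21.3% and 19.8% after quantile normalization. Mrpl35 fell by 0.78 ± 0.08, Mrpl22 by 0.71 ± 0.08, Mrpl55 by 0.68 ± 0.10 and Mrps12 by 0.60 ± 0.09 on the log2 scale. The direction was not restricted to the ligated DRG as deposited, since 2 rose and 37 fell in sham L5 and 1 rose and 29 fell in sham L4. Of all probe sets, 31.1% were called higher and 19.3% lower in sham L5, and 17.3% and 9.85% in sham L4. After quantile normalization 4 rose and 16 fell in sham L5 (16.9% and 21.5% of all), and 2 and 17 in sham L4 (8.97% and 8.91%). The share that fell in sham L5 was then near that of all probe sets. In SNL L4 5 rose and 9 fell as deposited, near the shares of all probe sets (10.1% and 9.01%).

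Genes of ribosome assembly and ribosomal RNA synthesis rose in number in SNL L5, where of 50 measured 26 rose and 4 fell as deposited and 19 and 5 after quantile normalization. The shares of all probe sets in SNL L5 were 30.3% higher and 16.8% lower as deposited, and 21.3% and 19.8% after quantile normalization. Among them Nop56, a core protein of the particles that methylate ribosomal RNA, rose by 0.66 ± 0.06, Gar1, of the particles that make pseudouridine, by 0.63 ± 0.08 and Bop1, which acts in large-subunit processing, by 0.63 ± 0.08, while the nucleolar protein Nolc1 fell by 0.78 ± 0.05. In sham L5 8 rose and 18 fell as deposited, and 8 and 10 after quantile normalization. The shares of all probe sets in sham L5 were 31.1% and 19.3% as deposited, and 16.9% and 21.5% after quantile normalization. Of 29 initiation factors and their regulators 15 rose and 2 fell in SNL L5 as deposited, and 17 and 2 after quantile normalization. Eif4g1, the scaffold of the cap-binding complex, stood at 0.72 ± 0.08 and Eif3b at 0.61 ± 0.06. In sham L5 4 of the 29 rose and 9 fell as deposited, and 4 and 8 after quantile normalization. In sham L5 Eif4g1 rose by 1.36 ± 0.07 and Eif3b fell by 0.54 ± 0.06, and both calls held after quantile normalization. Of 12 further genes with TOP messenger RNAs or elongation roles 8 rose and 1 fell in SNL L5, with Eif3f at 0.95 ± 0.07 and the elongation factors Eef2 at 0.74 ± 0.07 and Eef1a1 at 0.73 ± 0.11, while Eif4b fell by 0.50 ± 0.05. After quantile normalization 7 of the 12 rose and 1 fell in SNL L5. In sham L5 7 of the 12 rose and 0 fell as deposited, which became 1 and 1 after quantile normalization. For SNL minus sham at L5, 3 of the 12 were larger and 3 smaller as deposited (20.9% and 22.3% of all probe sets). After quantile normalization 6 were larger and 1 smaller (20.1% and 20.4%).

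Of 17 genes of mTORC1 and S6 kinase signalling 4 rose and 2 fell in SNL L5 as deposited, which is no larger a share than that of all probe sets (30.3% and 16.8%), and 4 and 3 did so after quantile normalization. Myc, a transcription factor that drives ribosome production, rose by 1.23 ± 0.08, the translational repressor Eif4ebp1 by 0.74 ± 0.13 and Tsc2, an inhibitor of mTORC1, by 0.54 ± 0.10. Rps6kb1, the S6 kinase whose substrate Rps6 is, fell by 0.88 ± 0.06. All 4 calls held after quantile normalization. In sham L5 4 of the 17 rose and 7 fell as deposited (31.1% and 19.3% of all probe sets), and 1 and 5 after quantile normalization (16.9% and 21.5%).

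**Figure D5:**
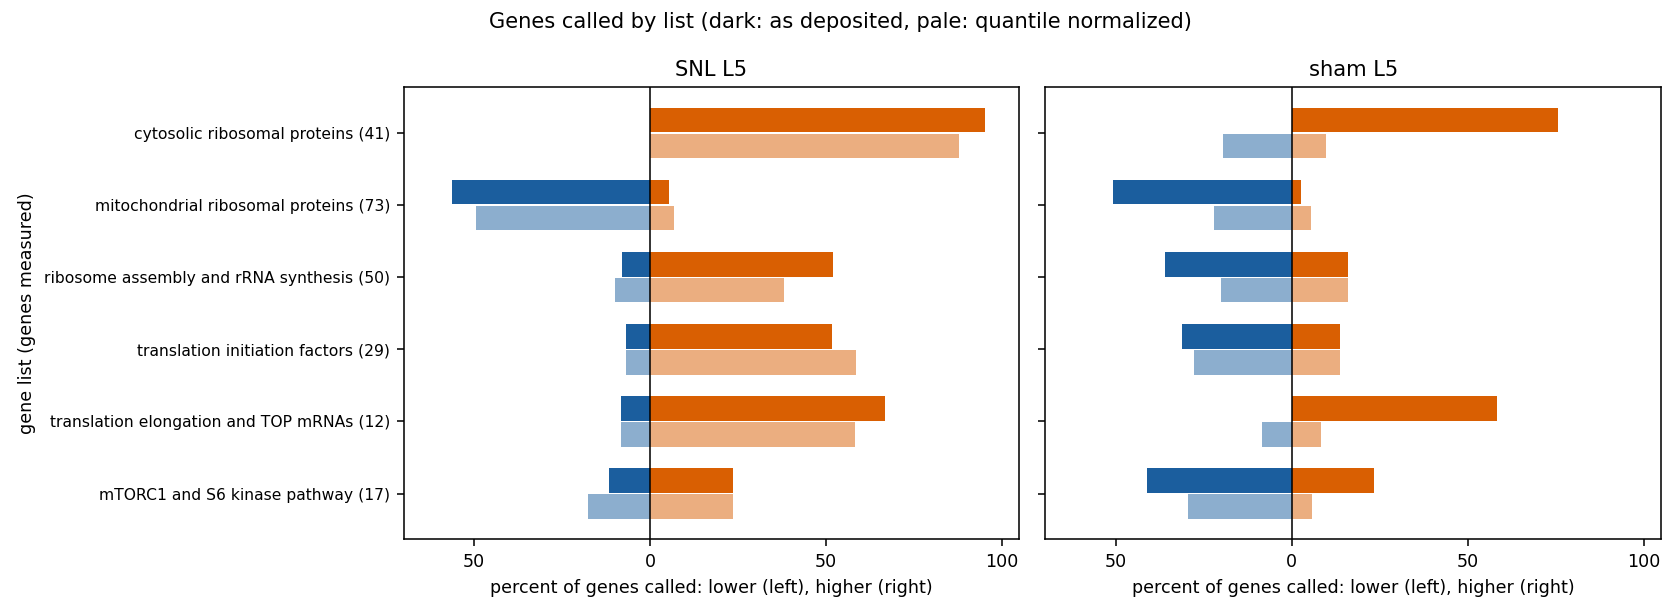
Percent of the genes of each list that were called higher (right, orange) or lower (left, blue) in SNL L5 and sham L5, with dark bars for signals as deposited and pale bars after quantile normalization. The number of genes measured stands beside each name. The cytosolic ribosomal proteins (39 of 41 higher in SNL L5) and the mitochondrial ones (41 of 73 lower) lie on opposite sides, and the bars of the cytosolic ones shrink to 4 higher and 8 lower in sham L5 after quantile normalization.

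Markers of the cell types in the DRG moved in the same comparison, where 30.3% of all probe sets were called higher and 16.8% lower as deposited. In SNL L5, 10 of 12 macrophage markers rose and 0 fell, with a median log2 fold change of 1.27 as deposited and 1.26 after quantile normalization. Their mean level, on the scale of log2(signal + 16), was 7.04 to 7.18 on the ipsilateral and 5.89 to 5.99 on the contralateral arrays, with 2 of the 12 at a mean signal under 16. Of 15 sensory neuron markers 2 rose and 11 fell, and their mean level was 9.28 to 9.36 against 9.90 to 10.15. Of 9 markers of satellite glia and Schwann cells 6 rose and 1 fell, and of 6 markers of neutrophils and red blood cells 5 fell. In sham L5, 2 macrophage markers rose and 6 fell as deposited (31.1% and 19.3% of all probe sets). In sham L5, 9 of the 15 neuron markers rose and 1 fell as deposited, and 1 rose and 3 fell after quantile normalization. Of the 9 glial markers 4 rose and 4 fell there as deposited, and 1 and 4 after quantile normalization. Of the 6 markers of neutrophils and red blood cells 5 rose and 1 fell there as deposited, and 2 and 2 after quantile normalization. The shares of all probe sets in sham L5 after quantile normalization were 16.9% higher and 21.5% lower. The part of any cell type in the rise of the ribosomal protein genes was not tested.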

How the data were processed

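The authors hybridized RNA of individual DRGs to Affymetrix rat genome arrays and deposited linear MAS 5 intensity values. The version of MAS 5 was not stated in the sources read here. Groups and rat numbers came from the labels. Signals were analysed as log2(signal + 16), after removal of 57 control probe sets, with lmFit and eBayes of limma 3.58.1 (R 4.3.3), allowing the prior spread to follow intensity. A comparison of sides used its own 10 arrays and an interaction 20, and p-values were adjusted by Benjamini-Hochberg over 31042 probe sets. The methods name a t-test at p under 0.001 and do not say if it was paired, and the rat was left out of the main model. The members, gene lists and tests were chosen with earlier results of these data known. Members named are those with roles listed by hand and, in each comparison, up to 5 called rises and 5 called falls of the largest size whose sides did not overlap. From each other list up to 4 called genes of the largest change were named. Of 23 genes listed by role, 13 were members. Members named outside this rule, such as Rpl12, Rpl19, Rpl28, Rpl30, Rpl39 and Rps9, were named after their values were seen.

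Rat numbers pair the DRGs, because one animal gave both sides. Deviations of same-numbered arrays from the means of their groups had correlations of -0.01 to 0.04 (SNL L4), -0.06 to 0.04 (SNL L5), -0.05 to 0.10 (sham L4) and -0.14 to 0.01 (sham L5). The models were tested on simulated data. Alternatives were quantile normalization, equal medians, offsets of 1 and 64, omission of dim probe sets, no intensity trend, the methods' test, the mean of a gene's probe sets, the rat as a block, 1 model for all 8 groups and omission of single arrays. Quantile normalization combined with the block, or with single arrays omitted, was added after seeing the data. Arrays have no read depth, so precision rests on how many there are.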

Additional observations from a re-analysis of the deposited data

Results flagged for a closer look

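In 7 of the 96 groups of 5 arrays examined, 1 array stood apart from the others, where chance gives about 1 in 20. The gap to the nearest array, as a share of the group's range, was 0.784 for Rpl26 in ipsilateral SNL L5, 0.820 for Rps6 in ipsilateral SNL L5, 0.744 for Rpl26, 0.780 for Rpl5 and 0.719 for Rps3a in contralateral sham L5, 0.727 for Rplp0 in ipsilateral sham L4 and 0.886 for Rps3a in contralateral sham L4.

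The side difference differed between SNL and sham rats, by the interaction in limma with the signals as deposited, for the members named here. At L4 the differences on the log2 scale were 0.68 for Rps15, 0.43 for Rpl22, 0.42 for Rps28, 0.25 for Rpl35, -0.56 for Rpl27, -0.33 for Rpl21 and -0.30 for Rps6. At L5 they were 0.65 for Rpl22, 0.64 for Rplp0, 0.49 for Rps15, 0.48 for Rpl18, 0.37 for Rps3, -0.37 for Rpl21, -0.30 for Rps29 and -0.21 for Rpl35a.

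Between the segments of SNL rats, L5 minus L4, the side difference differed by 0.71 for Rps3, 0.60 for Rpl7, 0.54 for Rpl27, 0.52 for Rpl37a and 0.52 for Rpl34.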

How the results depend on the processing

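The count of members called higher in SNL L5 was 39 as deposited and lay between 38 and 39 when single arrays were left out. It was 22 with equal medians, where the median fell to 0.19, and 24 by the methods' test. The cause of the differences between settings was not tested. For settings other than as deposited, quantile normalization and equal medians, the share of all probe sets called is not given here.

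After quantile normalization, the members called lower in SNL L4 numbered 2, those called higher and lower were 3 and 18 in sham L4, 4 and 8 in sham L5, 21 and 1 for SNL minus sham at L4, and 31 and 0 for SNL minus sham at L5. The sham medians changed sign, to -0.18 at L4 and -0.033 at L5. Among the genes named by the rule for each comparison, which leaves out other members whose sign also turned, it turned for Rpl13a (-0.054), Rps23 (-0.32) and Rps29 (-0.22) in sham L4, Rps29 (-0.074) in sham L5, and Rpl35a (0.13) and Rps29 (0.25) for SNL minus sham at L5. With equal medians the counts higher and lower were 9 and 8 in SNL L4 (median 0.0026), 3 and 15 in sham L4 (median -0.13), and 9 and 8 in sham L5 (median -0.022). For SNL minus sham they were lower in 1 at L4 and 0 at L5, and 12 were higher for L5 minus L4.

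Without the intensity trend, 9 were higher and 2 lower in SNL L4, 10 higher in sham L4, 2 higher for SNL minus sham at L4, 1 lower for SNL minus sham at L5, and 12 higher for L5 minus L4. The methods' test called 6 higher and 1 lower in SNL L4, and 6 and 0 in sham L4. Without dim probe sets 6 were lower for SNL minus sham at L4. With the mean of its probe sets Rpl14 turned to 0.27 in sham L4.

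With the rat as a replicate block, no count of members called as deposited moved by more than 1.5 times: 39 remained the count higher in SNL L5, 31 in sham L5 and 8 for SNL minus sham at L5 (12 without the block). With quantile normalization and the block together, the counts higher and lower were 3 and 18 in sham L4, 4 and 7 in sham L5, 22 and 1 for SNL minus sham at L4, and 27 and 0 for SNL minus sham at L5. The signs of these genes were the same with the block, at -0.054, -0.32, -0.22, -0.074, 0.13 and 0.25.

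When single arrays were left out, the counts higher and lower as deposited ranged from 11 to 18 and 2 to 4 in SNL L4, 13 to 17 and 2 to 5 in sham L4, 27 to 32 and 0 in sham L5, 2 to 6 and 2 to 4 for SNL minus sham at L4, 8 to 14 and 1 to 4 for SNL minus sham at L5, and 15 to 24 and 0 for L5 minus L4. After quantile normalization they ranged from 35 to 36 and 0 to 1 in SNL L5, 1 to 4 and 15 to 23 in sham L4, 4 to 5 and 5 to 8 in sham L5, and 28 to 31 and 0 to 1 for SNL minus sham at L5. The calls of Rps6 at L4 and of Rps29 and Rpl35a at L5 in SNL minus sham were lost in 13, 12 and 11 of 20 such omissions. With 5 arrays a group, small side differences near the threshold are the least certain.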
